A study of Mus musculus with 4 samples.

Results

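The Zfp genes are mouse genes named "zinc finger protein" with a number. They were followed in regulatory T cells (Treg), a class of CD4 T cells marked by the factor Foxp3 that hold other immune cells in check, after stimulation of death receptor 3 (DR3). Every gene whose probe set had exactly 1 symbol in the platform annotation, spelled Zfp plus digits only, was taken, and its brightest probe set stood for it. Of 336 such symbols, 229 are the members described here: they were chosen by brightness, with a signal over the array median on 2 or more arrays. The other 107 Zfp symbols were too dim to be tested. Over all genes of the array the same limit left 12114. How bright the members are is therefore a description and not a result. The values that chose them are the same arrays that the comparison uses, though not the difference between groups.

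The study used 4 arrays of sorted CD4+ Foxp3+ GFP+ cells from mice of the strain labelled Foxp3Luci-DTR-4(B6 Albino), 2 from mice given an agonistic antibody against DR3 and 2 from mice given an isotype control antibody. Cells were taken 4 days after the injection, which went into the peritoneum. All groups share the strain and the sort, and the labels used here give no age or sex of the mice and do not say how many mice stand behind an array. Since nothing says that replicates came from separate mice, the p-values speak to the spread among these 4 arrays alone, and that spread may be technical.

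Most Zfp proteins bind DNA through a row of C2H2 zinc fingers, small folds that each hold a zinc ion with a pair of cysteines and a pair of histidines and that read a few bases. Many also carry a KRAB domain, which recruits the corepressor Trim28 and through it the histone methyltransferase Setdb1, and so silences retroviral elements and imprinted loci. The genes arose by tandem duplication and often lie side by side. The name covers other proteins too, such as Zfp36, which binds messenger RNA through CCCH fingers, and Zfp598, a ubiquitin ligase of stalled ribosomes.

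The Zfp genes changed little after anti-DR3. In limma 3 of the 229 members rose (Zfp984, Zfp367 and Zfp760), 3 fell (Zfp652, Zfp827 and Zfp330) and 223 did not pass an adjusted p of 0.05. The fall of Zfp330 was at its brightest probe set, and its other probe sets differed by 0.09 and -0.03. The share higher was 1.31% of members, against 4.49% of all genes tested, and the share lower was 1.31%, against 1.47% (5.96% in either direction). Only Zfp984 differed by more than 1 on the log2 scale, and 192 members (83.8%) differed by less than 0.25, compared with 75.5% of all genes tested. The calls rested on all 4 arrays and on the brightness limit. When dim genes were kept, 0 of the 336 Zfp symbols passed in limma, and 45 lay under an unadjusted p of 0.05. Limma called 1 member higher (Zfp984) and 0 lower without anti-DR3 replicate 1, 0 and 0 without anti-DR3 replicate 2 or without control antibody replicate 1, and 1 higher (Zfp948) and 0 lower without control antibody replicate 2. In these fits 28, 21, 28 and 39 members lay under an unadjusted p of 0.05, compared with 40 with all 4 arrays.

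The promoter sequences of the 3 members that rose are shown. All 3 hold the letters CCAAT, and those of Zfp760 and Zfp367 also hold an E2F word. E2F factors drive genes of the cell cycle, and CCAAT is the box bound by the factor NF-Y. CCAAT was present in 52.6% of members with a promoter listed and in 37.8% of the other genes tested. An E2F word was present in 8.42% and 6.15%, and 2 of the 16 members with such a word were called. Whether these words have a part in the rise was not tested. Sequences are from RefSeq (GRCm38.p6), the 250 bases before an annotated transcription start, 5′ to 3′ on the strand of the gene, with CCAAT and E2F words in capitals. A match on the opposite strand reads as its reverse complement, ATTGG for CCAAT. The sequence of Zfp984 is chr4:147809789-147810038, minus strand, and that of Zfp760 is chr17:21707491-21707740, plus strand. For Zfp367 there are 2 annotated starts, at chr13:64153200-64153449, minus strand, and at chr13:64152374-64152623, minus strand.

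Zfp984: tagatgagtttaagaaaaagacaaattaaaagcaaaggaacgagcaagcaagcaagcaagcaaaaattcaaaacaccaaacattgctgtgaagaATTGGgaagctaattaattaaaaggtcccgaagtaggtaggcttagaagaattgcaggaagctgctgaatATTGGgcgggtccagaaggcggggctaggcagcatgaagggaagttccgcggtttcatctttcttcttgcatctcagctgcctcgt

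Zfp760: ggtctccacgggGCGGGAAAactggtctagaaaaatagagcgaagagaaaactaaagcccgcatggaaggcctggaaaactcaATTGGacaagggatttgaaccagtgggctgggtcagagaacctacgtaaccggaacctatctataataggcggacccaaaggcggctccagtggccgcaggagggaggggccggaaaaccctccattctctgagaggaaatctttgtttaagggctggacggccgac

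Zfp367, first start: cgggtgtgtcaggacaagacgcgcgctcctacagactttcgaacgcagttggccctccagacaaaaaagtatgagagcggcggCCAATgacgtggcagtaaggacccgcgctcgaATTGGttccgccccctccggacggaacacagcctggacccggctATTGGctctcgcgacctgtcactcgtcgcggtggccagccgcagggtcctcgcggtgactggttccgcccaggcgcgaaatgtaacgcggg

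Zfp367, second start: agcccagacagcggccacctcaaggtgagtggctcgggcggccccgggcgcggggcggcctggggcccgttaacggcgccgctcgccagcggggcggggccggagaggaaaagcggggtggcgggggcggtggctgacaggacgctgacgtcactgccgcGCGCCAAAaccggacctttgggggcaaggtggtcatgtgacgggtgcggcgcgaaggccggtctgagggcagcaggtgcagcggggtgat

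Of the members that fell, the promoter of Zfp652 is shown as well, from chr11:95748817-95749066, plus strand. It is AT-rich for the family, with 39.3% G and C over 300 bases, and its only CCAAT match begins 243 bases before the start.

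Zfp652: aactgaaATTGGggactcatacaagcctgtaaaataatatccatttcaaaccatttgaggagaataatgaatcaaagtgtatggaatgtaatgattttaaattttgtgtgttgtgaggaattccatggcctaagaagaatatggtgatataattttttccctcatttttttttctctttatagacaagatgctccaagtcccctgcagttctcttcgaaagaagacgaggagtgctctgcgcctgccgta

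Zfp984, a zinc finger gene that lies between Zfp534 and Zfp933 in the gene order of RefSeq, gave log2 intensities of 7.32 and 7.95 with anti-DR3, compared with 6.66 and 6.54 for the control antibody. Both anti-DR3 arrays were above both control arrays, and the anti-DR3 arrays lay farther apart from each other than the control arrays. Its log2 difference was 1.03 ± 0.20 (SE; each group has n = 2 arrays), a 2.05-fold rise (adjusted p = 0.0438, limma). Without each array in turn the difference ran from 0.72 to 1.35. With arrays centred on their own medians it was 0.97 and did not pass (adjusted p = 0.0558, and 0.0122 to 0.144 over all alternatives, limma). Zfp984 has related neighbours, and how far its probes tell it from them was not tested.

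Zfp367, a C2H2 protein known from erythroid cells as ZFF29, had values of 6.88 and 6.87 after anti-DR3 and 6.37 and 6.47 with the control antibody, so the groups did not overlap and the replicates lay close together. It rose by 0.45 ± 0.081, or 1.37-fold (adjusted p = 0.0373, limma), and by 0.39 after centring, where it did not pass (adjusted p = 0.0611, and 0.014 to 0.194 over all alternatives, limma). Zfp760 stood at 6.21 and 6.15 after anti-DR3 and at 5.71 and 5.76 with the control antibody. It rose by 0.44 ± 0.080, or 1.36-fold (adjusted p = 0.0373, limma), and by 0.38 after centring (adjusted p = 0.0589, and 0.0347 to 0.177 over all alternatives, limma). The replicates of each group were again closer to each other than to the other group.

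Zfp652, a repressor that works with the corepressor Cbfa2t3, was at 6.53 and 6.32 after anti-DR3 and at 7.23 and 7.05 with the control antibody. It fell by 0.71 ± 0.11 on the log2 scale, a 1.64-fold difference (adjusted p = 0.0269, limma), the largest fall among the members. Zfp827, which brings the NuRD chromatin complex to telomeres, was at 6.40 and 6.59 against 7.20 and 6.95 and fell by 0.58 ± 0.12 (adjusted p = 0.0493, limma). Both kept their call after centring, and both lost it without any 1 of the arrays (adjusted p = 0.0519 to 0.153 for Zfp652 and 0.0604 to 0.197 for Zfp827, limma).

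Zfp330, a nucleolar protein also called NOA36, was at 7.72 and 7.83 after anti-DR3 and at 8.29 and 8.35 with the control antibody at its brightest probe set. There it fell by 0.55 ± 0.084 (adjusted p = 0.0269, limma). The position of this probe set in the genome was not looked up, and whether it measures Zfp330 alone was not tested. The gene has 3 probe sets, all above the median on every array, and the others differed by 0.09 and -0.03. Their values overlapped between the groups, at 7.63 and 7.95 against 7.74 and 7.65, and at 7.26 and 7.49 against 7.41 and 7.39. With the mean of its probe sets the difference of Zfp330 was -0.16 and did not pass (adjusted p = 0.368, and 0.00356 to 0.368 over all alternatives, limma), so the fall was seen at 1 probe set of 3.

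**Figure D1:**
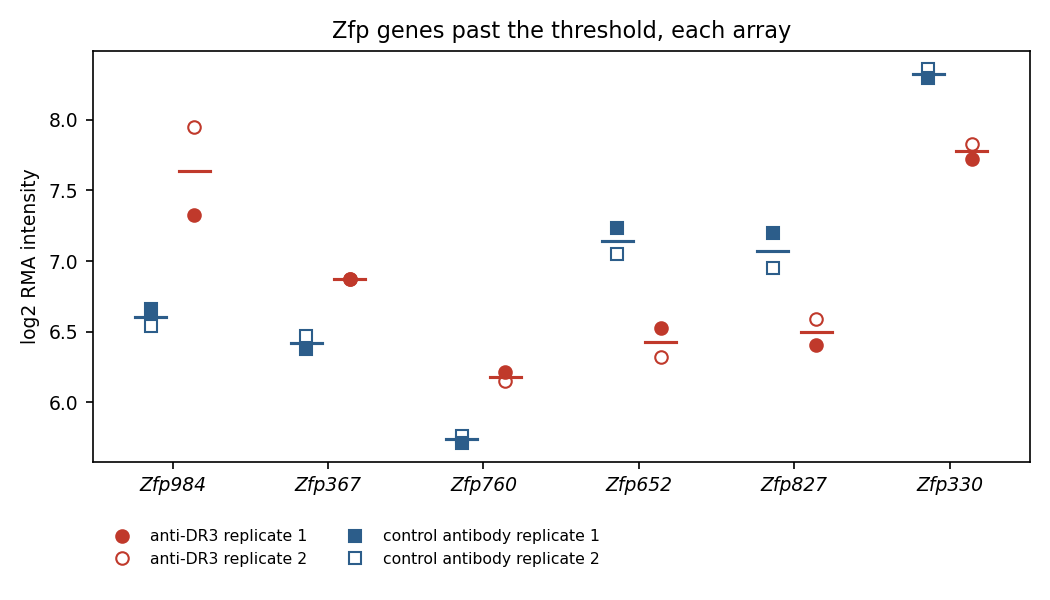
Log2 intensity (RMA) of the 6 Zfp members past the threshold on each array, control antibody as squares and anti-DR3 as circles, replicate 1 filled and replicate 2 open, with a bar at the mean of each group. Within each gene the groups do not overlap, and Zfp984 shows the widest gap between groups and between its anti-DR3 arrays; levels of different genes come from different probe sets and cannot be compared.

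The next members in rank showed smaller shifts. On the lower side these were Zfp398, which is known to bind the estrogen receptor, at -0.32 ± 0.078 (adjusted p = 0.0695, limma), and Zfp110, the neurotrophin receptor interacting factor NRIF, at -0.35 ± 0.091 (adjusted p = 0.0807, limma). NRIF is known to bind the p75 neurotrophin receptor, which like DR3 is a death domain receptor of the tumour necrosis factor receptor family. Zfp398 stood at 7.28 and 7.28 after anti-DR3 and at 7.63 and 7.58 with the control antibody, and Zfp110 at 7.05 and 6.98 against 7.44 and 7.28. For each the groups did not overlap. On the higher side were Zfp808 at 0.50 ± 0.11 (adjusted p = 0.0534, limma) and Zfp11 at 0.43 ± 0.10 (adjusted p = 0.0661, limma). Zfp808 had 6.98 and 7.21 against 6.65 and 6.54, and Zfp11 5.88 and 6.09 against 5.60 and 5.50. The calls of Zfp398, Zfp110 and Zfp808 depended on the setting. Each passed with a trended robust prior (adjusted p = 0.0357, 0.0476 and 0.0243, limma). None of them passed when dim genes were kept (adjusted p = 0.206, 0.218 and 0.169, limma).

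Across all members the differences ran from -0.71 to 1.03 with a median of -0.03, compared with a median of 0.01 over all genes tested. The middle 50 percent of members spanned 0.22, from -0.13 to 0.09, and that of all genes tested spanned 0.27, from -0.11 to 0.16. Of the members 134 (58.5%) were lower after anti-DR3 and 95 higher, while 47.6% of all genes tested were lower. On the side of large differences 4 members (1.75%) passed 0.5 in size, against 5.55% of all genes tested. The groups did not overlap for 106 members, 48 higher and 58 lower, which is 46.3%, against 56.1% of all genes tested (31.6% higher and 24.6% lower). An unadjusted p under 0.05 was reached by 18 members upward and 22 downward, together 17.5%, against 26.1% of all genes tested (16.6% upward and 9.57% downward). These shares describe the members, which were not set against other lists by a test.

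Over the members the median size of the difference was 0.11 between group means, 0.12 between the anti-DR3 arrays and 0.12 between the control arrays. A difference of means of 2 arrays varies less than one of single arrays, so these values cannot be set against each other directly. The median level of the members was 6.35 and 6.38 after anti-DR3 and 6.38 and 6.35 with the control antibody, so the groups overlapped. Measured from the median of all genes tested on the same array, the members lay at -0.46 and -0.43 after anti-DR3 and at -0.39 and -0.38 with the control antibody, where the groups do not overlap. Arrays of the same group correlated over the members at r = 0.982 (anti-DR3) and 0.981 (control antibody), and arrays of different groups at 0.962 to 0.977.

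**Figure D2:**
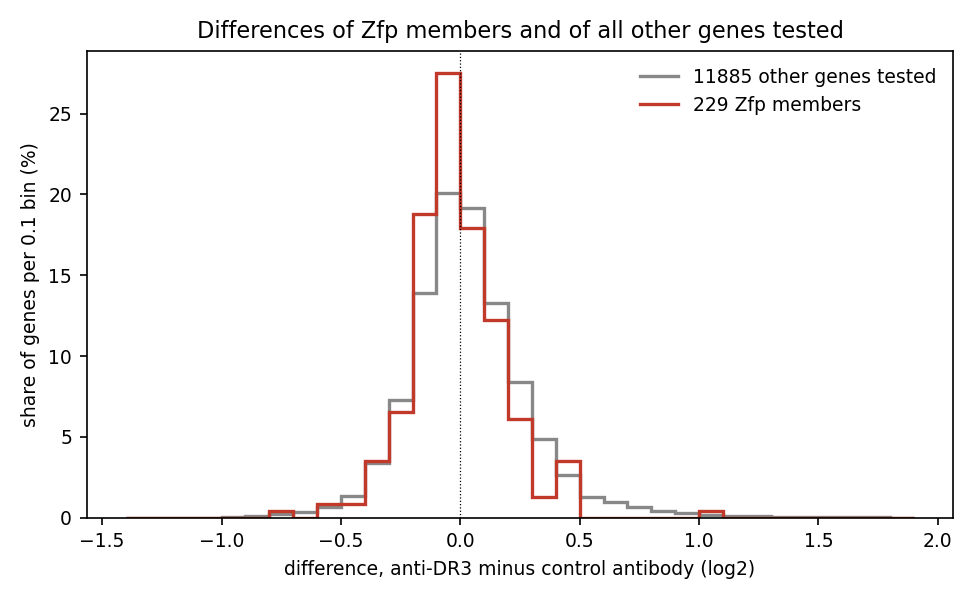
Share of genes (percent) in each bin of 0.1 of the log2 difference, anti-DR3 minus control antibody, for 229 Zfp members (red) and 11885 other genes tested (grey). The members gather more tightly around their median of -0.03, and the upper side of the other genes reaches farther.

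All genes tested were put into 4 equal bins by mean level. The dimmest bin held 57 members, the next 93, then 52, and the brightest 27. Their median differences were -0.04, -0.03, -0.02 and -0.0041 in that order, while all genes of the same bins had -0.05, 0.0039, 0.05 and 0.04. In the 3 brighter bins the median of the members was below that of all genes, and in the dimmest bin above it. The middle 50 percent of members spanned 0.20, 0.23, 0.21 and 0.22 from the dimmest to the brightest bin, and that of all genes 0.23, 0.28, 0.28 and 0.28. In the dimmest bin limma called 0 members (8 had an unadjusted p below 0.05), while 2.41% of all genes there were called higher and 1.16% lower. In the next bin 2 members were higher and 2 lower, 2.15% each, against 4.10% and 1.02% of all genes. In the third bin 1 member was higher and 0 lower, against 5.15% and 1.09%, with 10 members under an unadjusted p of 0.05 in limma. In the brightest bin 0 members were higher and 1 lower, or 3.70%, against 6.31% and 2.61% of all genes. That member was Zfp330, which fell at 1 of its 3 probe sets only. In limma 5 members of this bin had an unadjusted p under 0.05. The share of members called lower was thus above that of all genes in 2 bins and below it in the other two, on 0 to 2 members a bin.

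Among members that act on RNA, Zfp36, the protein tristetraprolin that binds AU-rich elements and speeds decay of cytokine messages, was at 11.30 and 11.34 after anti-DR3 and at 11.32 and 11.35 with the control antibody. The groups overlapped, and the difference was -0.01 ± 0.078 (adjusted p = 0.936, limma). Its relatives Zfp36l1 and Zfp36l2, which are outside the naming rule of the members, differed by -0.06 ± 0.080 and -0.29 ± 0.090 (adjusted p = 0.677 and 0.116, limma). Zfp598, the ubiquitin ligase that marks collided ribosomes, was at 6.96 and 6.94 against 7.14 and 7.12 and differed by -0.18 ± 0.077 (adjusted p = 0.215, limma). Its groups did not overlap, but it did not pass. Zfp106, an RNA-binding protein needed by motor neurons and muscle, differed by -0.11 ± 0.10 (adjusted p = 0.568, limma), and a dim second probe set gave -0.45.

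Of the listed members of known role that act in division or transcription, none passed in limma. Zfp207, known as BuGZ, which carries the checkpoint protein Bub3 to kinetochores, was at 9.29 and 9.32 after anti-DR3 and at 9.06 and 9.25 with the control antibody. Its difference was 0.15 ± 0.094 (adjusted p = 0.377, limma). Zfp830, needed for division in the early embryo, differed by -0.05 ± 0.12 (adjusted p = 0.854, limma), and Zfp217, an oncoprotein found with CoREST and the demethylase Kdm1a, by -0.05 ± 0.085 (adjusted p = 0.770, limma). The sequence-specific factors Zfp148, Zfp281 and Zfp384 differed by -0.02 ± 0.099, -0.18 ± 0.11 and -0.02 ± 0.082, with adjusted p of 0.943, 0.331 and 0.892 in limma. Zfp318, which in B cells permits the long transcript of IgD, differed by -0.16 ± 0.10 (adjusted p = 0.396, limma).

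Members known to silence retroelements or imprinted loci did not pass either. Zfp809, which recognizes the primer binding site of murine retroviruses, was at 7.79 and 7.63 after anti-DR3 and at 7.55 and 7.62 with the control antibody, and differed by 0.13 ± 0.091 (adjusted p = 0.432, limma). Zfp445 and Zfp57, which protect imprints, differed by 0.07 ± 0.084 and 0.04 ± 0.13 (adjusted p = 0.653 and 0.887, limma). Zfp57 was above the median on 3 arrays only, at 5.59, 5.43 and 5.63, and at 5.31 on the last. Zfp568, which represses a placental promoter of Igf2, differed by -0.03 ± 0.10 (adjusted p = 0.902, limma). The estimated differences of the 14 members of known role lay between -0.18 and 0.15, and with their errors some reach beyond that range. The direction of the 8 smallest of these differences turned in some alternative fits, so none is given a direction here.

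**Figure D3:**
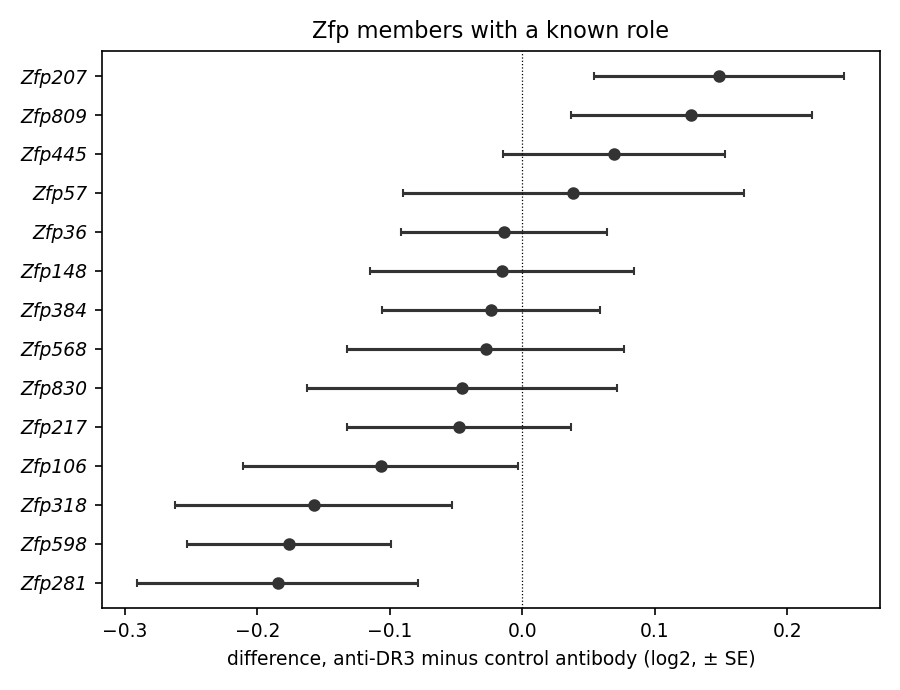
Difference on the log2 scale, anti-DR3 minus control antibody, with its SE (n = 2 arrays per group), for the 14 tested Zfp members on the list of known roles. All estimates lie between -0.18 and 0.15, some error bars reach beyond that range, and none passed an adjusted p of 0.05 in limma.

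The partners of the KRAB proteins were looked at as a list of corepressor and heterochromatin genes. Of 34 listed genes 30 were tested. Their median difference was 0.02, and 1 rose while 0 fell, where 4.49% of all genes tested rose and 1.47% fell. The riser was Uhrf1, which guides maintenance DNA methylation at replication forks, at 0.49 ± 0.10 (adjusted p = 0.0479, limma). The next in rank were Ehmt2, a histone H3 lysine methyltransferase, at 0.39 ± 0.091, Tasor of the HUSH silencing complex at -0.37 ± 0.093, and Pphln1, also of HUSH, at 0.25 ± 0.085 (adjusted p = 0.0666, 0.0766 and 0.133, limma). Trim28 and Setdb1, named after their values were seen, differed by -0.12 ± 0.081 and 0.13 ± 0.093 (adjusted p = 0.387 and 0.425, limma).

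Other zinc finger genes that do not carry the Zfp name were counted the same way. A list of mainly KRAB and SCAN zinc finger genes under other names, whose domains were not checked, also held Zxdb and Zxdc. Of its 22 tested genes 0 passed, with a median of 0.02. At an unadjusted p under 0.05 in limma 1 was higher and 1 lower. Of 29 Zbtb genes, which join a BTB domain to zinc fingers, 2 fell (6.90%) and 0 rose, with a median of -0.06. Zbtb10 fell by 0.82 and Zbtb21 by 0.43 on the log2 scale. For comparison, 1.47% of all genes tested were called lower and 4.49% higher. Of 14 Kruppel-like factors 2 rose, Klf12 by 1.18 ± 0.10 and Klf8 by 0.47 ± 0.096 (adjusted p = 0.00988 and 0.0490, limma), and 0 fell. Their median was -0.20, with 10 of the 14 lower after anti-DR3. An unadjusted p under 0.05 in limma was reached by 3 upward and 5 downward. Whether these lists differ from the Zfp members was not tested.

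The place of the members in the genome was read from the order of protein-coding genes in RefSeq. Of the 336 symbols, 335 matched by gene identifier and 332 were protein-coding. Of these, 163 stood next to another of the 336 symbols, in 51 runs of neighbours. Of the runs 14 held 4 or more genes, and the longest held 12. Any gene outside the 336 symbols ended a run, also another Zfp gene, such as Zfp260 between Zfp566 and Zfp382. Some members counted outside runs therefore lie beside Zfp genes too, such as Zfp738 between Zfp729a and Zfp65. Among symbols in runs 35.6% were dim, and among the others 28.3%. The 105 members in runs had a median difference of -0.03, with 2 calls higher (Zfp984 and Zfp760) and 0 lower, and the 124 other members had a median of -0.02, with 1 higher and 3 lower. The middle 50 percent spanned 0.25 in runs and 0.20 outside. In limma 0 lower calls in runs and 3 outside are too few to compare, and this difference was not tested.

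The neighbours of the genes that rose had values in both directions. Zfp984 stood in a run of 6 from Zfp982 to Zfp933, where the other members, Zfp979 and Zfp933, differed by -0.13 and -0.22, and the 3 dim genes by -0.61 (Zfp982), -0.0043 (Zfp985) and -0.10 (Zfp534). Zfp760 headed a run of 8 up to Zfp994 with 5 members, which ran from -0.19 to 0.44 with a median of -0.06. Among its 3 dim genes was Zfp820, at 3.56 and 3.60 with anti-DR3 and at 2.33 and 2.62 with the control antibody, so its groups did not overlap and both anti-DR3 arrays were higher. The longest run, the 12 genes from Zfp84 to Zfp566, had 9 members between -0.30 and 0.16, 5 higher and 4 lower, with 0 calls. The next runs are named after their values were seen. In the run from Zfp786 to Zfp746, 5 of the 6 members were lower, with a median of -0.21, and Zfp398 was the lowest at -0.32, while Zfp282 was at 0.10. Both members of the run from Zfp677 to Zfp53 were higher, at 0.42 and 0.14, as were both of the run from Zfp954 to Zfp772, with a median of 0.22. Paralogs in such runs can be similar in sequence, so probe sets may take up signal from a neighbour, and how far they do so was not tested.

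**Figure D4:**
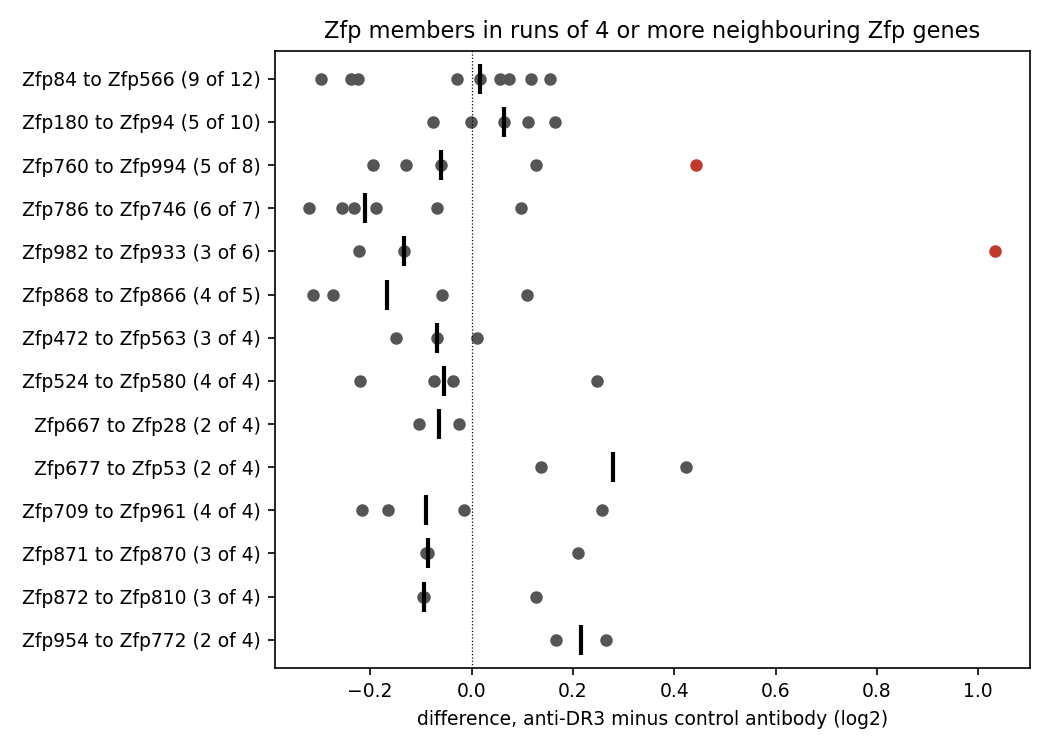
Log2 difference, anti-DR3 minus control antibody, of each member (points) in the 14 runs of 4 or more neighbouring Zfp genes, with the median of the run as a black bar and calls in red. Labels give the first and last gene of the run and how many of its genes are members. Zfp984 and Zfp760 lie far from the other members of their runs. Dim genes are not drawn, among them Zfp820 of the Zfp760 run, which was also higher after anti-DR3.

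What the members share in their promoters was read from windows of 300 bases, from 250 before to 50 after the first start listed for a gene. Such a window was found for 190 of the 229 members and 9289 of the 11885 other genes tested. The members had a median of 55.8% G and C and 16 CpG sites, against 60.7% and 20 in the other genes tested and 52.7% and 7 over all 27025 genes of the table. CCAAT was present on either strand in 100 members (52.6%), in 37.8% of the other genes tested and in 37.9% of all genes. The E2F words TTTGGCGC, TTTCCCGC, TTTGGCGG and TTTCCCGG, some of which share their first letters, were present in 16 members (8.42%), in 6.15% of the other genes tested and in 3.40% of all genes.

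Of the members with an E2F word at the first start 2 rose, Zfp760 with TTTCCCGC from 238 bases before the start and Zfp367 with TTTCCCGC across the start, and the remaining 14 did not pass. At its second start Zfp367 also held TTTGGCGC, as the capitals GCGCCAAA in the sequence shown. The median difference of the 16 was -0.05, and that of the 174 members without such a word -0.02. The members with CCAAT had a median of -0.01 and those without it -0.03. The 3 members that rose held CCAAT at 2 (Zfp984), 1 (Zfp760) and 3 places (Zfp367). Of those that fell, Zfp652 held it at 1 place, and these letters were not found in the windows of Zfp330 and Zfp827. A match is a description of the letters in the window and not of binding.

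The other words searched, on both strands, were less common. TGAGTCA or TGACTCA (AP-1) was present in 4.74% of members, 3.52% of the other genes tested and 5.17% of all genes. GGGAATTTC, GGGACTTTC, GGGGATTCC or GGGAAATTC, parts of NF-kappaB sites, were present in 2.11%, 1.04% and 1.08%. ACTACAA of the ZNF143 site was present in 6.32%, 4.35% and 3.45%, and AAGATGGCG of the YY1 site in 4.21%, 3.15% and 1.49%. CACGTG, the E-box, was present in 8.42%, 10.2% and 7.24%, TGACGTCA, the CRE, in 1.05%, 3.23% and 1.88%, and TATAAA in 6.84%, 7.25% and 14.2%. Of the 6 members past the threshold, Zfp652 and Zfp827, which both fell, held TATAAA on the opposite strand, from 74 and 106 bases before the start. They are 2 of the 13 members with TATAAA; the remaining 11 did not pass. The 6 members held neither an AP-1 nor an NF-kappaB word in these windows.

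The limit on brightness can let a gene in through 1 group. Of the 229 members 207 were above the median on all 4 arrays, 14 on 3 and 8 on 2. Among the last, Zfp944 and Zfp456 were above it on both anti-DR3 arrays only and Zfp972 on both control arrays only. The array medians were 5.33 and 5.34 with anti-DR3 and 5.38 and 5.39 with the control antibody. The limit therefore forced the groups apart for Zfp972, while a gene at a flat level could enter as Zfp944 and Zfp456 did. Values were 5.38 and 5.51 against 5.25 and 5.29 for Zfp944, and 5.34 and 5.78 against 5.12 and 5.15 for Zfp456. For Zfp972 they were 5.21 and 5.23 against 5.54 and 5.46, and limma called none of these 3. Just inside the limit, the mean log2 value minus the mean array median was -0.15 (Zfp873), -0.035 (Zfp174) and -0.031 (Zfp661), and just outside it was 0.024 (Zfp663), -0.0038 (Zfp12) and -0.033 (Zfp748). Among the 207 members above the median on all arrays, 3 rose and 3 fell, with a median of -0.03.

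Cell identity and proliferation were checked on the same arrays. Of 10 Treg markers, all tested, Ikzf2 rose and Il2ra fell, while Foxp3 was at 11.93 and 11.90 with anti-DR3, against 11.89 and 11.81, and differed by 0.06 ± 0.081 (adjusted p = 0.671, limma). Among 18 tested mitosis genes, 13 were called higher and 0 lower (median 1.07), and their summed intensity was 2739 to 2779 after anti-DR3 and 1166 to 1252 with the control antibody. Among 12 tested genes typical of resting or naive cells, 5 fell and 0 rose, with sums of 7549 to 7557 and 8430 to 9672. Both lists moved in the same comparison as the members that rose and fell, and their part in those results was not tested. Markers of other cells had 1 call each for CD8 T cells (Cd8b1, 1 of 4 tested) and for monocytes and macrophages (Csf1r, 1 of 6 tested). The sums for CD8 T cells were 426 to 451 after anti-DR3 and 376 to 410 with the control antibody. Those for monocytes and macrophages were 501 to 560 and 450.0 to 486. All 6 tested monocyte and macrophage genes were higher after anti-DR3, with a median of 0.30. Whether such cells were present in the sort was not tested. Cd8a, Gzma, Cd14, Adgre1 and Fcgr1 were too dim to be tested. The lists of B cells, plasma cells, natural killer cells, dendritic cells, neutrophils, erythroid cells and platelets, and stromal cells had 0 calls in limma. In them 1 gene was higher and 1 lower under an unadjusted p of 0.05. Sums, which include dim genes, were higher after anti-DR3 for plasma cells (883 to 941 against 765 to 801) and B cells (329 to 337 against 319 to 325). They were lower for dendritic cells (558 to 562 against 599 to 654) and for erythroid cells and platelets (84.8 to 91.9 against 97.4 to 100.2). The sums of the remaining lists overlapped between the groups. In sorted cells taken in bulk, fewer cells that express a gene and less RNA per cell cannot be told apart.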

How the data were processed

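Per the submitters' processing notes, the authors made the deposited values by robust multi-array average (RMA), which corrects background, normalizes arrays to a shared distribution and summarises probe sets; this can hide a shift shared by all genes. Software version and genome build: not given in the sources used here. These deposited intensity values are linear, as read from the values, and log2 was taken before any test. Of 41345 probe sets 23521 had 1 symbol, 1814 several and 16010 none listed; 41 of those with several symbols included a Zfp symbol and were not used. The brightest probe set stood for a gene. For 18 members more than 1 probe set was present.

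Groups were compared in limma 3.58.1 (R 4.3.3, lmFit and eBayes, two-sided), adjusted by Benjamini-Hochberg over all 12114 genes tested, with a threshold of 0.05. The fit had 2 residual degrees of freedom, to which eBayes added 3.94 from its prior. An exact permutation test of 2 arrays against 2 cannot go below 0.333. The number of arrays limits the precision. The code was tested on simulated data. Members were named by a rule: those past the threshold, the 5 with the largest statistic in each direction, and 18 with a known role. Of the latter, Zfp91, Zfp143, Zfp335 and Zfp683 had no probe set with a single symbol and are not analysed here. The members, lists and tests were chosen with earlier results of these data known. A planned split by KRAB domain and finger number was not made, because no protein sequences were used here. RefSeq (GRCm38.p6) gave promoters, gene order and identifiers, and no probe position was taken from it. Figures were drawn with matplotlib 3.10.9.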

Additional observations from a re-analysis of the deposited data

How the results depend on the processing

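All 6 members past the threshold kept their direction in every alternative run. Over these 6, 37 values kept the call and 40 lost it, and over the 18 other named members 206 kept their side, 11 gained a call and 14 turned direction. The counts of members moved as follows, from 3 higher and 3 lower, and the cause was not tested. Leaving out 1 array at a time, with the single array left in its group taken to vary as the other group does, limma called 0 to 1 members higher and 0 lower (10 to 18 and 11 to 21 under an unadjusted p of 0.05), and 0 to 245 of all genes higher and 0 to 67 lower, from 544 and 178. No filter on dim genes gave 0 and 0 of all 336 Zfp symbols (19 and 26 unadjusted), and 14 and 0 of all genes. The stricter filter left 115 Zfp genes, of which 5 were lower, and gave 897 and 310 of all genes. Centring each array gave 0 higher members (9 unadjusted) and 348 higher of all genes, with 243 lower. Quantile normalization gave 1 higher member. A trended robust prior gave 5 lower members, and 1082 and 362 of all genes, and an adjusted p of 0.10 gave 7 and 7 members, and 1171 and 518 of all genes. The median difference of the members was -0.086 after centring and -0.057 after quantile normalization, and it stayed below 0 in every alternative run. Minus the median of all genes it ran from -0.055 (stricter filter, 115 Zfp genes) to -0.016 (no filter, 336 Zfp symbols), so these ends come from different sets of genes. Member counts added after seeing the data, over members above the median on all 4 arrays and over those with 1 probe set, gave 3 and 3, and 3 and 2.

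The replicate block gave 0 higher members (19 under an unadjusted p of 0.05) and 3 lower, Zfp330, Zfp652 and Zfp980, of which Zfp330 and Zfp652 were also called without it. The labels do not say what a replicate number shares, and deviations of arrays with the same number correlated at 0.051 over all genes and 0.0066 over the members, which with 2 pairs cannot show a pairing.

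Directions that turned were those of small differences. With each array left out, Zfp36 ran from -0.032 to 0.0044, Zfp148 from -0.12 to 0.092, Zfp217 from -0.098 to 0.0020, Zfp384 from -0.077 to 0.030, Zfp57 from -0.12 to 0.20, Zfp568 from -0.12 to 0.060 and Zfp830 from -0.18 to 0.090. Quantile normalization gave -0.024 for Zfp445, and centring gave -0.022 for Zfp57.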

Other observations

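Some values lie outside the comparison because the probe sets were dim. Among the 107 dim Zfp symbols the differences of the group means ran from -0.75 (Zfp352) to 1.11 (Zfp820), with a median of -0.08. The groups did not overlap for 20 of the 107 upward and 30 downward. For comparison, they did not overlap for 56.1% of all genes tested, and for 44.8% of those in the dimmest of the 4 bins by level. Zfp97 was at 4.34 and 4.54 after anti-DR3 and at 3.87 and 3.53 with the control antibody. Zfp429, above the array median on 1 array, was at 5.29 and 5.83 against 4.88 and 5.05. These, Zfp820 and Zfp352 were named after their values were seen, and at such signals a fold is not given.

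A second probe set of Zfp979 had 6.69 and 3.25 on the anti-DR3 arrays and 6.05 and 6.08 on the control arrays, so anti-DR3 replicate 2 alone was low, while the probe set used for the gene was at 5.47 and 5.82 against 5.80 and 5.76. Zfp979 lies in the same run as Zfp984, whose highest value was on anti-DR3 replicate 2. Zfp948 was at 5.29 on control antibody replicate 1 and between 6.14 and 6.22 on the other arrays.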
